A study of Homo sapiens with 12 samples.

Results

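SAMD11, GPR15 and ARID5B were measured in HCT116 cells, a human colorectal cancer line, after MEK inhibition. The 3 genes were chosen by their gain in input RNA under trametinib: they are strong gains of that comparison that are neither keratins nor interferon genes. All 3 were found among the 15798 genes counted, and all 3 were among the 10663 genes tested. Their input values are therefore given as a description with no test, whereas their ribosome footprints, sequenced in separate libraries, were tested. Footprints and input came from the same lysates, so the footprints are not a second experiment, and a rise in them was likely beforehand.

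SAMD11 carries a sterile alpha motif (SAM), a fold through which proteins bind each other, and is known from photoreceptors, where it acts with Polycomb repressive complex 1 (PRC1) in gene silencing. GPR15 is a G protein-coupled receptor known for guiding T cells to the mucosa of the large intestine. Its gene is a known target of the aryl hydrocarbon receptor (AHR) in T cells. ARID5B binds DNA through an AT-rich interaction domain (ARID) and recruits the histone demethylase PHF2. MEK is the kinase that activates ERK, and trametinib is an inhibitor of MEK.

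Cells had been given 100 nM trametinib or its solvent DMSO for 24 h, with 3 dishes per treatment of the same unmodified line. Shortly before lysis all dishes received cycloheximide, which halts ribosomes on their mRNAs. From each lysate an input library (total cytoplasmic RNA, fragmented by alkali) and a footprint library (the fragments that ribosomes shielded from RNase I) were made, giving 12 libraries in 4 groups: DMSO_IN, DMSO_RPF, TRAM_IN and TRAM_RPF. Fragments of 25 to 35 nt were sequenced, and only those within reading frames were counted. Trametinib was tested at a single dose and time in 1 line.

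The sequences upstream of the 3 genes are shown because they are regions from which the mRNAs that rose can start. RefSeq (GRCh38.p14) promoters matched all 3 members, with 1 window each for SAMD11 and GPR15 and 2 windows for ARID5B. The 250 bases before the start are given 5′ to 3′ on the plus strand, the coding strand of all 3 genes. They lie at chr1:925481-925730 for SAMD11, chr3:98531728-98531977 for GPR15 and chr10:61901449-61901698 for the upstream start of ARID5B. Capitals mark matches to any of 7 motifs searched on both strands: CCGGAA (ETS core), TGANTCA (AP-1), GCGTG (AHR core), CTTTG (TCF core), GGGCGG (SP1), TATAAA and CCAAT.
SAMD11: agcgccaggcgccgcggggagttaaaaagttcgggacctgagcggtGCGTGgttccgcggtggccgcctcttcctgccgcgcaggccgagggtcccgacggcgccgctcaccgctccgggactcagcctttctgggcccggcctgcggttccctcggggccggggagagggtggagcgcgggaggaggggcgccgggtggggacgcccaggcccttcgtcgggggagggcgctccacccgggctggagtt
GPR15: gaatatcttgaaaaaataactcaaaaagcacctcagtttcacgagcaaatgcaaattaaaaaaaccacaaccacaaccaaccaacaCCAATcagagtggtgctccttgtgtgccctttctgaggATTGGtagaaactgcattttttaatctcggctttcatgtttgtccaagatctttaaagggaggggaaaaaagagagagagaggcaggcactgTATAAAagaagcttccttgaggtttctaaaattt
ARID5B: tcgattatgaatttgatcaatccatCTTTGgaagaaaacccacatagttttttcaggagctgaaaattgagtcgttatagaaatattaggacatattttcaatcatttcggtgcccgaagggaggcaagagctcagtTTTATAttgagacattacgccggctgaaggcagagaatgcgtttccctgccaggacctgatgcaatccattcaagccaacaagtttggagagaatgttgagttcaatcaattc

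The 3 windows differed in composition. The SAMD11 window held 75.6% G and C, above 90.7% of the 35116 RefSeq promoters of the same length, whose median was 58.0%. The GPR15 and ARID5B windows were poor in G and C, at 38.8% and 40.4%. GPR15 had a TATAAA 34 bases before its start, a match that 10.7% of all promoters hold somewhere in the window, and CCAAT at 164 and, on the other strand, at 126 bases before it (32.0% of promoters hold CCAAT). SAMD11 held the AHR core once, as 32.2% of promoters do. ARID5B held the TCF core once (42.1% of promoters) and TATAAA once, on the minus strand. The ETS core (14.5% of promoters), AP-1 (6.6%) and SP1 (42.6%) motifs had no match in these windows or in the second ARID5B window at chr10:62049107-62049356. That second window lies within the gene, held 57.6% G and C and is not printed because 146 of its bases lie in an annotated exon. The printed ARID5B window ends with 15 bases of the first exon of a Gencode transcript that starts further upstream. A match is a string of letters and not evidence of binding. No motif searched was common to all 3 members.

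In Gencode v44 (GRCh38) SAMD11 is at chr1:923923-944575, with 14 exons and 2535 coding bases in its MANE transcript. Its Gencode start lies upstream of the RefSeq start used for the window, which falls in an intron of the longer transcript. GPR15 is at chr3:98531978-98534681 and has a single exon with 1083 coding bases. ARID5B is at chr10:61901684-62096944, with 10 exons and 3567 coding bases. The 3' end of SAMD11 overlaps that of NOC2L, on the opposite strand, by 373 bases, of which 0 are coding in both genes. None of the 28-base stretches of the 3 coding sequences (2508 for SAMD11, 1056 for GPR15, 3540 for ARID5B) occurred in transcripts of another gene symbol. Shorter or inexact matches were not examined.

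Total counts ran from 2276693 to 2845568 in the input libraries and from 10127477 to 19181588 in the footprint libraries. The mRNAs of the ERK feedback genes DUSP6 and SPRY4 and of the ETS factor ETV5 were lower in trametinib input by log2 changes of -7.63, -6.94 and -6.39 (edgeR adjusted p = 3.31e-08, 1.75e-07 and 1.95e-06), which matched the treatment labels. DMSO dish 1 stood apart from the other DMSO dishes, most clearly in footprints: its root mean square deviation from the group mean was 0.305 on the log2 scale, against 0.169 and 0.224 for the other two, and in input it was 0.306 against 0.222 and 0.287. Trametinib libraries deviated by 0.0917 to 0.192. Results that rest on DMSO dish 1 are given below with and without it.

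SAMD11 was close to absent in DMSO and abundant in trametinib. In DMSO input it had 9, 4 and 12 counts in dishes 1, 2 and 3, and in trametinib input 323, 330 and 325. In footprints the counts were 32, 23 and 26 in DMSO and 967, 758 and 599 in trametinib. Every trametinib library lay far above every DMSO library of its kind, and after scaling to library size the 3 trametinib libraries of each kind were close to each other. The choice of the members by input gain favours such a separation. The share of all genes that show it was not counted. Input counts scaled by library size factors (normalized counts) were 18.7 ± 9.75 in DMSO and 821 ± 38.2 in trametinib (mean ± SD, n = 3 throughout), a ratio of 43.8. Normalized footprint counts were 12.1 ± 2.71 and 298 ± 13.3, a ratio of 24.6. The gain was thus smaller among footprints than in input, and the low DMSO input counts set the precision of both the ratio and this difference. In RNA of a whole dish, more cells that use a gene and more RNA per cell cannot be told apart.

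GPR15 followed the same pattern with more spread between trametinib dishes. It had 4, 15 and 7 counts in DMSO input and 193, 120 and 132 in trametinib input. In footprints it had 69, 43 and 55 counts in DMSO and 1869, 982 and 752 in trametinib. The groups did not overlap in either kind of library, with the same limit as for SAMD11. Trametinib dish 1 was the highest in both, with a normalized count of 464 in input, against 309 and 339, and of 574 in footprints, against 403 and 358. Means were 19.1 ± 12.1 and 371 ± 82.5 in input, a ratio of 19.4, and 24.6 ± 3.94 and 445 ± 114 in footprints, a ratio of 18.1. The ratios of input and footprints of GPR15 were thus nearly equal, but the low DMSO input counts leave that comparison imprecise.

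ARID5B was the only member with sizeable counts in DMSO. Input held 25, 69 and 64 counts in DMSO and 471, 428 and 475 in trametinib. Footprints numbered 249, 338 and 452 in DMSO and 6281, 4253 and 3615 in trametinib. With the same limit, the trametinib libraries lay above the DMSO libraries without overlap. DMSO dish 1 was the lowest in both kinds. Its normalized input count was 53.9, against 149.1 and 149.8 in the other DMSO dishes, and its normalized footprint count was 91.7, against 220.2 and 167. Group means were 118 ± 55.2 and 1152 ± 62.0 in input, a ratio of 9.79, and 159.5 ± 64.5 and 1799 ± 114 in footprints, a ratio of 11.3. Without DMSO dish 1 the fitted log2 change was 2.95 instead of 3.30 in input and 3.24 instead of 3.51 in footprints, so the rise of ARID5B did not rest on that dish, although its size did in part.

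**Figure D1:**
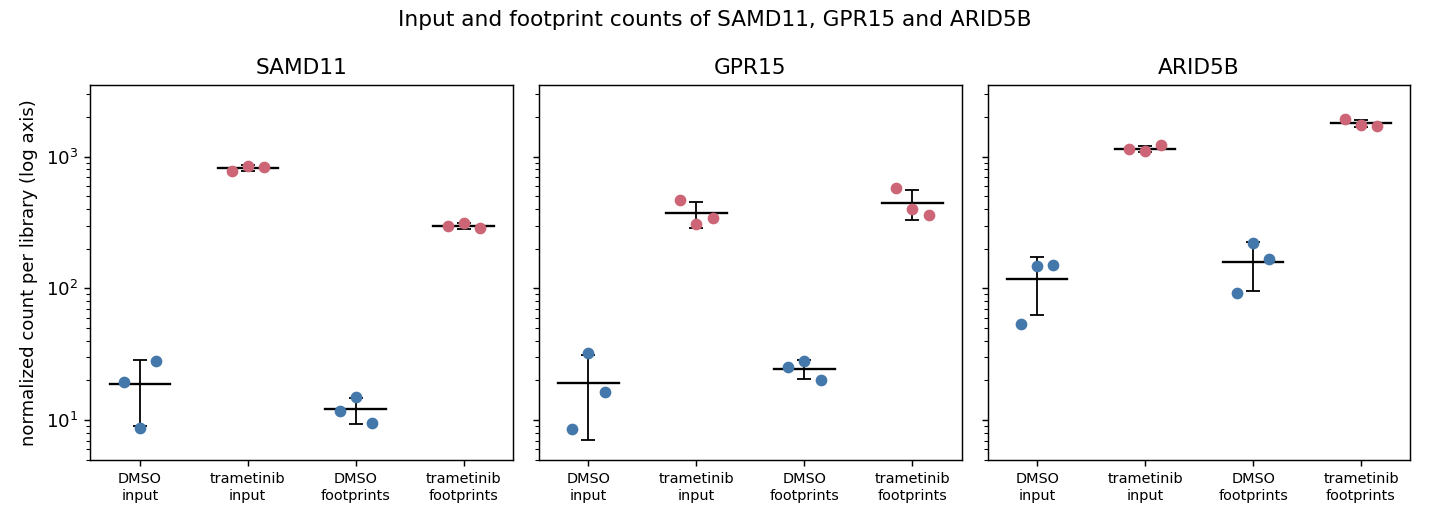
Normalized counts (log axis) of SAMD11, GPR15 and ARID5B in each of the 12 libraries, DMSO in blue and trametinib in red, with bars for the mean and SD of 3 dishes. Trametinib and DMSO points do not overlap in any panel, a separation that the choice of the genes by input gain favours. ARID5B in DMSO dish 1 (the leftmost point of each DMSO group) is the lowest of its group in input and in footprints.

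The question put to the footprints was whether they rose too. The test is against no change and does not measure how closely footprints matched the gain in mRNA. A rise was likely beforehand, since input of the same lysates chose the genes. Among all genes tested, 2545 (23.9%) had higher and 2727 (25.6%) lower footprint counts in trametinib at an adjusted p under 0.05, so a call as such was common. SAMD11 footprints rose by 4.65 on the log2 scale (SE 0.18; edgeR's quasi-likelihood test, Benjamini-Hochberg adjusted p = 3.69e-07), the 12th largest of 10663 changes. GPR15 footprints rose by 4.20 (SE 0.23; edgeR adjusted p = 2.01e-06) and were 15th. ARID5B footprints rose by 3.51 (SE 0.28; edgeR adjusted p = 1.84e-05) and were 22nd. All 3 differences exceeded the spread between dishes. The median footprint change of all genes was -0.01. When libraries were scaled by their totals alone this median became 0.16 and 64.8% of called genes were higher instead of 48.3%, while the members' changes stayed between 3.50 and 4.83 in all scalings, filters and models tried on the full set of libraries.

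A gene was tested if 3 or more of the input libraries held 10 or more of its counts. SAMD11 and GPR15 each reached 10 counts in just 1 DMSO input library and so entered through their trametinib libraries. The footprint p-values and ranks of these genes given above therefore belong to genes that high trametinib input of the same lysates had admitted. ARID5B reached 10 counts in all 12 libraries.

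The order of the input changes, which chose the members, placed SAMD11 8th, GPR15 12th and ARID5B 29th of 10663. Their fitted log2 changes were 5.45 (SE 0.27), 4.26 (SE 0.33) and 3.30 (SE 0.28). By the same fit 1641 genes (15.4%) were called higher and 1787 (16.8%) lower in trametinib input. The 7 genes ranked above SAMD11, among them the mucin MUC16 and the death ligand TNFSF10, had at most 1 count in any DMSO input library, so their order rests on near-empty controls. Around the other two members lay KRT13 at 4.58 and APOL6 at 4.11, on either side of GPR15, and SMAD7 at 3.33 and SLC6A20 at 3.27, on either side of ARID5B. SMAD7 is an inhibitor of TGF-beta receptors and SLC6A20 an amino acid transporter. GPR15 and ARID5B differed from these neighbours in rank by less than their own standard errors.

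**Figure D2:**
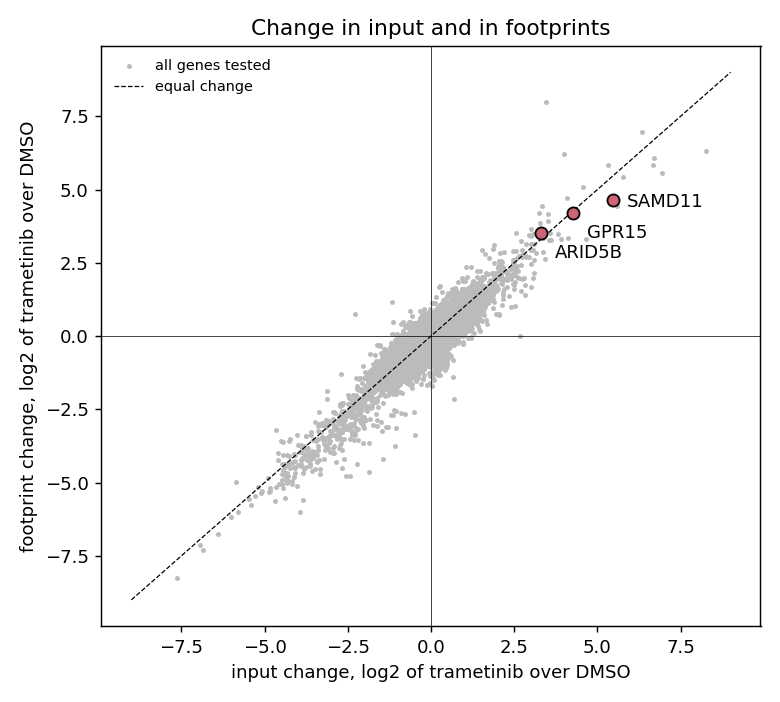
Log2 change of trametinib over DMSO in footprints (vertical axis) against input (horizontal axis) for the 10663 genes tested (grey) and the 3 members (red); the dashed line marks equal change. SAMD11 lies below the line (5.45 in input, 4.65 in footprints), GPR15 on it (4.26 and 4.20) and ARID5B slightly above it (3.30 and 3.51).

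Levels of different genes were compared in CPM (counts scaled to a common library total) per kilobase of coding sequence. In DMSO input the order was ARID5B at 5.61 ± 2.73, GPR15 at 3.01 ± 1.95 and SAMD11 at 1.25 ± 0.660, with the ranges of neighbours overlapping. In trametinib input the 3 genes reached nearly the same level: 57.8 ± 12.5 for GPR15, 54.7 ± 2.92 for SAMD11 and 54.5 ± 2.64 for ARID5B. These differences were smaller than the spread between dishes. In footprints the members did not meet. The length-scaled footprint level in trametinib was 85.2 ± 5.88 for ARID5B and 69.5 ± 18.2 for GPR15, whose ranges overlapped, but 19.8 ± 1.03 for SAMD11, whose highest dish (20.8) lay well under the lowest of GPR15 (55.2). In DMSO footprints SAMD11 was also the lowest, at 0.715 ± 0.169, under GPR15 at 3.39 ± 0.576 and ARID5B at 6.70 ± 2.78.

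Ribosome density was the normalized footprint count divided by the normalized input count of the same dish. Both count reads within reading frames, so density expresses ribosomes per unit of coding length relative to the average gene, not ribosomes per mRNA. In trametinib the density of SAMD11 was 0.382, 0.367 and 0.341 in the 3 dishes (percentile 9.18 of the 10663 tested genes). That of GPR15 was 1.24, 1.31 and 1.05 (percentile 59.2), and that of ARID5B was 1.70, 1.59 and 1.41 (percentile 74.1). The trametinib dishes of the 3 genes did not overlap between SAMD11 and the other two. DMSO densities were imprecise, because each divides by a small input count. SAMD11 had DMSO densities of 0.607, 1.73 and 0.341, a range that reached down to its trametinib values.

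The change in density is the footprint change less the input change by which the genes were chosen, so a large input gain lowers it by construction, and it is given as a description. The log2 change in density from the fit over all 12 libraries was -0.82 (SE 0.35) for SAMD11, -0.08 (SE 0.47) for GPR15 and 0.21 (SE 0.43) for ARID5B, with no p-value because input chose the genes. The median of all genes was near 0, with quartiles at -0.20 and 0.20. Taken per dish, the differences were -0.97 (SE 0.69), -0.30 (SE 0.53) and 0.15 (SE 0.20). Leaving out both libraries of DMSO dish 1, a check added later, gave -0.84, 0.34 and 0.28, and the sign for GPR15 also turned in other settings, such as scaling by library totals (0.11) or leaving out trametinib input replicate 1 (0.12). Scaling between libraries removes any shift in translation that affects every mRNA alike, so these values are relative to the other genes.

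**Figure D3:**
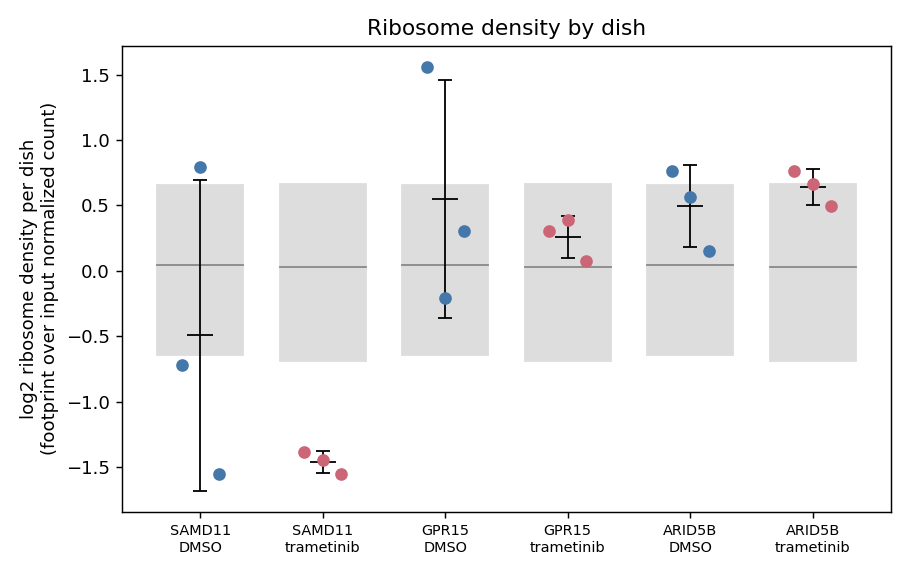
Log2 ribosome density of each dish for the 3 members in DMSO (blue) and trametinib (red), with the mean and SD of 3 dishes; grey boxes span the quartiles of all genes tested and grey lines their medians. The SAMD11 trametinib dishes (densities 0.341 to 0.382) fall below the box, while the trametinib dishes of GPR15 and ARID5B lie within or just above it and DMSO points are widely scattered for SAMD11 and GPR15.

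RefSeq starts of the 4 member windows carry G or A as the first transcribed base. The 5' terminal oligopyrimidine motif, which places mRNAs under mTOR control, begins with C and a run of pyrimidines, and none of the 4 starts had it.

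Genes related to SAMD11 were followed through PRC1 and its SAM-domain proteins. Of 30 listed genes 26 were tested, and 5 were higher and 7 lower in input (median log2 change -0.24, against a value near 0 for all genes), with 4 higher and 6 lower in footprints (median -0.15). Among all genes tested, 15.4% were higher and 16.8% lower in input, and 23.9% were higher and 25.6% lower in footprints. The ubiquitin ligase subunit RING1 rose in input (0.70, edgeR adjusted p = 0.00985) with a footprint change of 0.08 (adjusted p = 0.638). The chromodomain protein CBX8 had an input change of 1.48 (adjusted p = 0.000775) and a footprint change of 0.16 (adjusted p = 0.544). BCOR, a corepressor of a variant PRC1, rose in both, by 1.18 and 1.54 (adjusted p = 0.000266 and 7.61e-05). SCML1, which has a SAM domain, fell by 2.04 on the log2 scale in input and by 2.26 in footprints (adjusted p = 0.00525 and 8.39e-05). The Polycomb proteins PHC2 and PCGF6 were lower too, by log2 input changes of -1.45 and -1.04 (adjusted p = 5.92e-05 and 0.00227). Without DMSO dish 1, in a check added later, 6 of the list were higher and 9 lower in footprints, in a fit that also called more of all genes (3176 higher and 3247 lower, against 2545 and 2727). Members of the list thus moved in both directions, as did the tested genes as a whole.

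The other genes named SAMD share the domain but not a common role. Of 13 that were counted, 9 were tested: 2 rose and 0 fell in input (median 0.25), and 4 rose and 1 fell in footprints (median 0.38). The shares over all genes were 15.4% up and 16.8% down in input, and 23.9% up and 25.6% down in footprints. Without DMSO dish 1 these counts became 3, 0, 6 and 1, while higher calls over all genes numbered 1767 (input, against 1641) and 3176 (footprints, against 2545). SAMD5 went from 11.1 ± 0.527 to 91.1 ± 23.5 normalized counts in input, a log2 change of 3.01 (edgeR adjusted p = 3.93e-05). SAMD9, a gene that interferon can induce, went from 96.6 ± 32.1 to 643 ± 55.4, a log2 change of 2.74 (edgeR adjusted p = 1.38e-06). Footprints of both rose as well, by 2.45 and 2.69 (adjusted p = 3.83e-06 and 2.26e-06). SAMD13 had an input change of -0.38 (adjusted p = 0.339), and its footprints fell by 0.72 on the log2 scale (adjusted p = 0.0172), a call lost without trametinib replicate 2 or 3 (edgeR adjusted p = 0.0568 and 0.0633). SAMD7, the partner of SAMD11 in photoreceptors, was not analysed here. Photoreceptor markers were near 0: the 3 counted summed to at most 1.62 CPM in any library.

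For GPR15 the comparison was with the other genes named GPR, a set held together by name. Of 46 that were counted, 16 passed the filter, of which 4 rose and 0 fell in input (median 0.54), and 11 rose and 0 fell in footprints (median 0.64). All genes together had 15.4% higher and 16.8% lower in input, and 23.9% higher and 25.6% lower in footprints. Without DMSO dish 1 the input count was 6 and the footprint count 10, while higher calls over all genes numbered 1767 in input and 3176 in footprints. A gene can pass the filter through the treatment in which it is high, so these counts describe the expressed genes alone. Genes that failed it, all low in input, went both ways in footprints. For example, GPR3 had 6.78 ± 1.42 normalized footprint counts in DMSO and 0.102 ± 0.177 in trametinib, and GPR20 had 5.89 ± 1.11 and 15.0 ± 3.23. GPR162 rose by 1.68 in input (edgeR adjusted p = 0.00374) and by 1.32 in footprints (adjusted p = 0.0177). The zinc-sensing receptor GPR39 rose by 1.63 and 1.31 (adjusted p = 0.0242 and 0.00087), and GPR153 by 1.43 and 1.27 (adjusted p = 0.00214 and 0.0187). The input call of GPR39 was lost without DMSO replicate 2 (edgeR adjusted p = 0.0977) or without trametinib replicate 2 or 3 (0.0746 and 0.0887), and its input change was 2.72 (edgeR adjusted p = 0.00105) without DMSO replicate 3. The footprint call of GPR162 was lost without trametinib replicate 1 or 2 (edgeR adjusted p = 0.0806 and 0.0527), and that of GPR153 without any 1 trametinib replicate (0.0503 to 0.0565). All were well short of the change of GPR15, which was chosen for a large input gain. Normalized input counts of GPR162, GPR39 and GPR153 in trametinib were between 58.2 and 99.3.

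The partners of GPR15 in lymphocyte homing were largely silent. Of 16 homing genes listed, 11 were counted and 2 passed the filter. The chemokine CXCL16 had an input change of 0.36 (edgeR adjusted p = 0.209) and rose by 1.08 in footprints (adjusted p = 8.76e-05). ITGAE, an integrin chain of intraepithelial lymphocytes, fell by 1.09 on the log2 scale in input and by 1.24 in footprints (adjusted p = 0.00151 and 0.000859). The ligand gene GPR15LG was not analysed here. T cell markers were close to 0: the 5 counted summed to at most 0.878 CPM in any input library, so the cells in which GPR15 is best known were not detectable in these cultures at this depth. The 5 myeloid markers summed to at most 1.21 CPM in DMSO input, where 3 were at 0, and to between 3.46 and 4.83 in trametinib input, where 1 (CD14) was at 0. Their part in the results was not tested. The 3 fibroblast markers summed to between 7.40 and 14.1 CPM in DMSO input and to between 6.59 and 15.6 in trametinib input. Epithelial markers summed to between 5014 and 7244 CPM in DMSO input and to between 8217 and 10382 in trametinib input, although 2 of the 8, CDX1 and VIL1, were at 0 in input. Of the 6 tested, 3 rose and 0 fell in input, where 15.4% of all genes rose and 16.8% fell. The part of this shift of epithelial markers in the results was not tested.

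The AHR pathway, which controls GPR15 in T cells, was examined as well. Of 10 genes 7 were tested: 3 rose and 1 fell in input (median 0.42), and 5 rose and 1 fell in footprints (median 0.43). For all genes tested the shares were 15.4% and 16.8% in input, and 23.9% and 25.6% in footprints. The receptor AHR itself had 20.3 ± 12.7 normalized input counts in DMSO and 39.9 ± 15.3 in trametinib, a log2 change of 0.96 that missed the threshold (edgeR adjusted p = 0.133), while its footprints rose by 1.55 (adjusted p = 0.000551). CYP1B1, a monooxygenase gene that AHR can induce, rose by 2.11 in input and 2.55 in footprints (adjusted p = 0.00177 and 0.000497). The partner ARNT rose by 0.52 (adjusted p = 0.0314) and the reductase gene NQO1 by 0.41 (adjusted p = 0.035) in input. PTGES3, a chaperone of the receptor complex, fell by 0.80 on the log2 scale (adjusted p = 0.00225). CYP1A1, the classical AHR target, and the AHR repressor AHRR were too low in input to be tested. Normalized input counts of CYP1A1 were 9.661 ± 4.673 in DMSO and 12.696 ± 5.398 in trametinib, a difference within the spread between dishes. Its footprints were nearly equal, at 10.3 ± 3.38 in DMSO and 10.7 ± 3.17 in trametinib. Mean normalized counts of AHRR were higher in trametinib but low: 1.499 in DMSO and 4.122 in trametinib input, and 0.926 and 3.11 in footprints. The input calls of ARNT and NQO1 were lost without DMSO replicate 2 (edgeR adjusted p = 0.0954 and 0.0839) or any 1 trametinib replicate (0.0662 to 0.135 and 0.0536 to 0.166), that of ARNT also without DMSO replicate 3 (0.0524) and that of NQO1 with no filter (0.0547). With the replicate block 6 genes of the list rose in input instead of 3, among them AHR (edgeR adjusted p = 0.0478).

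ARID5B was set beside the other ARID genes and the PHF2 group of demethylases. Of 16 genes 14 were tested, 3 rose and 0 fell in input (median 0.08), and 4 rose and 0 fell in footprints (median 0.21). Over all genes 15.4% rose and 16.8% fell in input, and 23.9% rose and 25.6% fell in footprints. Without DMSO dish 1, 7 rose in footprints, where calls of higher footprints over all genes went from 2545 to 3176. KDM5B, a demethylase with an ARID, rose by 1.08 in input and 1.02 in footprints (edgeR adjusted p = 0.0012 and 0.00534), and KDM5A by 0.71 and 0.49 (adjusted p = 0.00315 and 0.00362). The paralogue ARID5A rose by 0.75 and 1.21 (adjusted p = 0.0427 and 0.00212), against 3.30 and 3.51 for ARID5B, which was chosen for a large input gain. Its input call was lost without DMSO replicate 1 or 2 or any 1 trametinib replicate (edgeR adjusted p = 0.0612 to 0.146), with no filter (0.0575) and under DESeq2 (adjusted p = 0.13). PHF2, the enzyme that ARID5B recruits, had 291 ± 44.6 normalized input counts in DMSO and 289 ± 23.3 in trametinib (adjusted p = 0.998), and a footprint change of -0.12 (adjusted p = 0.469).

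**Figure D4:**
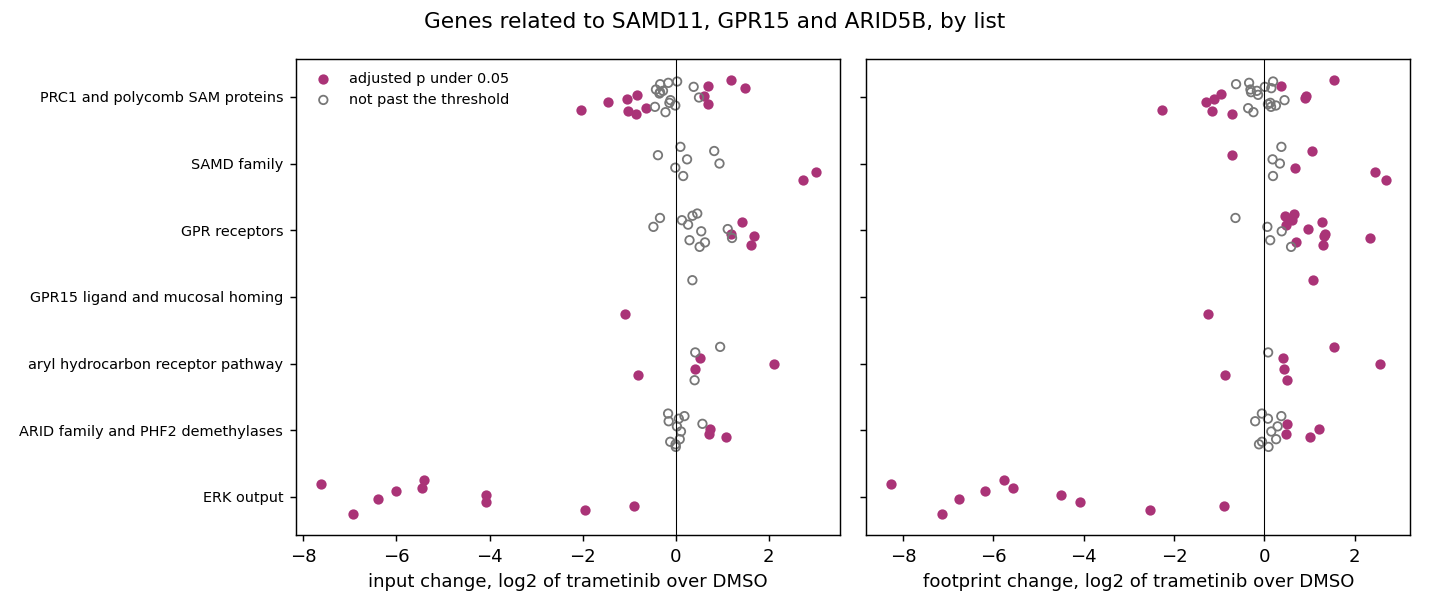
Log2 change of trametinib over DMSO in input (left) and footprints (right) for each tested gene of the lists set beside the members, one row per list; filled points had an edgeR adjusted p under 0.05. Most ERK output genes lie far to the left, but PHLDA1 is at -0.90 in both panels, and the GPR and SAMD points lie mostly to the right. None of the tested genes shown reaches the footprint change of SAMD11 (4.65), GPR15 (4.20) or ARID5B (3.51), which were chosen for large input gains. Listed genes that failed the input filter are not shown. Among them SAMD9L had low normalized footprint counts of 0.586 ± 0.193 in DMSO and 12.2 ± 1.13 in trametinib.

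The genes beside the members on the chromosome, chosen after their values had been seen, were also compared. NOC2L, whose end overlaps SAMD11, had an input change of -0.17 (edgeR adjusted p = 0.48) and a footprint change of -0.40 (adjusted p = 0.0791), which was -0.59 (adjusted p = 0.000117) without DMSO replicate 1. KLHL17, 16.0 kb beyond SAMD11, had an input change of 0.99 (edgeR adjusted p = 0.00808) and a footprint change of 0.06 (adjusted p = 0.847). On either side of GPR15, CLDND1 (9.08 kb away) rose by 0.79 and the haem synthesis gene CPOX (35.8 kb away) by 1.62 in input (adjusted p = 0.000691 and 0.000197). RTKN2, 87.0 kb beyond ARID5B, fell by 3.48 on the log2 scale (adjusted p = 6.89e-06), opposite in direction to ARID5B. No tested neighbour rose as far as the member beside it, which was likely because the members were chosen for large input gains.

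The genes most like each member across the 12 libraries, by Pearson correlation of log2 CPM centred within assay, were SHFL, PLCD1 and ID3 for SAMD11 (r = 0.994, 0.994 and 0.993), PRKCD, LMO2 and RCAN2 for GPR15 (r = 0.992, 0.992 and 0.991) and NLRP5, RGS2 and THBS1 for ARID5B (r = 0.991 each). The members correlated with each other at 0.959 to 0.980. These values are dominated by the step from DMSO to trametinib that the libraries share, and the correlation ignores its size: the input change was 0.73 for PRKCD and 3.05 for NLRP5.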

How the data were processed

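Input RNA and ribosome footprints of HCT116 cells were analysed from the authors' table. Per the labels and the methods of the study, the authors removed rRNA and tRNA reads with Bowtie 1.2.2, mapped to Gencode V38 transcripts and counted reads inside reading frames by gene symbol. The deposited columns hold raw counts and a normalized signal, in which each library's counts were scaled by its size factor. The authors' log2 fold changes and adjusted p-values (DESeq2 1.46.0) were not used, and 0 sample columns were left unused.

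Counts were tested within each assay by edgeR 4.0.16 (R 4.3.3; quasi-likelihood, TMM, prior count 0.125) over genes that reached 10 counts in 3 or more of the input libraries, with Benjamini-Hochberg adjustment over all 10663 genes and a threshold of 0.05. Standard errors were derived from the F statistics. Density was the interaction of assay and treatment with DESeq2-type size factors. The tests were checked on simulated data. DESeq2 1.42.0, other scalings and filters, and leaving out each library were alternatives. Library totals were 2276693 to 2845568 for input and 10127477 to 19181588 for footprints.

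The members, lists and named genes were chosen with earlier results of these data known. The named genes were the members, fixed relatives, up to 3 genes per list and direction with the largest input change among those called, the genes most alike and those next in rank. Levels per length had been planned on RefSeq protein lengths; Gencode v44 coding lengths were used instead. Coordinates are Gencode v44 or RefSeq GRCh38.p14 as named; counting used an older Gencode release.

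Deviations of same-numbered DMSO and trametinib libraries from their group means were compared over the 7668 genes averaging 100 normalized counts or more. Their correlation was weak in footprints (r = 0.116, 0.133 and 0.293) and in input (0.0692, 0.0504 and 0.336). The replicate block was kept as an alternative. Input and footprints of the same treatment and number were taken as 1 dish (r between -0.116 and 0.816).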

Additional observations from a re-analysis of the deposited data

How the results depend on the processing

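Of 132 values of the members under the alternatives, 129 stayed within their spread and on their side of the threshold. The other 3 were density changes of ARID5B, which ran from -0.072 to 0.56 when 1 library was left out. Leaving out 1 library gave footprint changes of 4.51 to 4.80 for SAMD11, 3.97 to 4.33 for GPR15 and 3.24 to 3.81 for ARID5B (largest edgeR adjusted p 0.000367), input changes of 5.11 to 5.85, 3.90 to 4.88 and 2.95 to 3.52, and density changes of -1.22 to -0.48 for SAMD11 and -0.72 to 0.28 for GPR15 (0.34 without both libraries of DMSO dish 1). With the replicate block (paired dishes) footprint changes were 4.65, 4.18 and 3.57 and density changes -0.81, -0.14 and 0.18, and it changed no member's call. GPR15's density change ran from -0.14 to 0.11 over the other alternatives.

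With a 2-fold minimum, input calls were 720 (higher) and 932 (lower), and footprint calls 737 and 998. Leave-one-out counts ran from 1069 (without trametinib input replicate 2) to 1767 higher and from 1221 to 1923 lower in input, and from 1878 to 3176 higher and 2012 to 3247 lower in footprints. Of 676 values of other named genes, 630 kept direction and call, 32 lost a call and 2 gained one. The remaining 12 changed sign. PHF2 input changes were -0.0013 with RLE scaling, -0.0045 with library totals, -0.0013 with DESeq2, -0.019 with no filter, -0.013 with the filter on either kind, and -0.094 to 0.12 leaving out 1 library; its footprint change was 0.062 with library totals. Leaving out 1 library gave -0.30 to 0.019 for NOC2L input, -0.034 to 0.27 for CBX8 footprints and -0.026 to 0.17 for RING1 footprints. The cause was not tested. Input depth limits the density of SAMD11 and GPR15 in DMSO.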
